A study of Mus musculus with 6 samples.

Results

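The transcripts examined here encode 9 receptors and receptor partners that place follicular B cells within lymphoid tissue and let them leave it: Ccr7, Cxcr4, Cxcr5, Ccr6, Gpr183, S1pr1, S1pr2, S1pr4 and Cd69. They were chosen by name as genes of chemotaxis, homing and egress. All 9 were among the 12431 genes of the count table, and all 9 passed the filter on low counts that left 10514 genes. The RNA came from splenic follicular B cells, described as CD21/35- and CD23+, of adult male mice. The cells were cultured for 1 h in complete medium with no added stimulus. The WT group (Gpr174+/Y) and the KO group (Gpr174-/Y) each held 3 libraries. Gpr174 lies on the X chromosome and encodes a receptor of the lipid lysophosphatidylserine, and in KO mice its only coding exon is exchanged for an in-frame tdTomato reporter. The allele is not restricted to B cells, so the other cells of a KO male lack the receptor too. The comparison asks which of these transcripts depend on genotype soon after the start of culture.

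Follicular B cells find their way by G-protein-coupled receptors. CXCR5 draws them to CXCL13 in the follicle, CCR7 draws them to CCL19 and CCL21 in the T cell zone, and GPR183 (EBI2) follows oxysterols to the outer follicle and the border with the T cell zone. CXCR4 responds to CXCL12 and CCR6 to CCL20. The S1P receptor S1PR1 is needed for exit into blood and lymph, S1PR2 couples to G12/13 proteins and restrains migration, S1PR4 is a further S1P receptor of leukocytes, and CD69 is an early activation antigen that binds S1PR1 and lowers its surface level.

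Library totals lay between 8452460 and 10944833 counts. Gpr174 transcript was at 136, 126 and 122 CPM (counts scaled to library size by TMM factors) in WT replicates 1 to 3, against 99.9, 100.2 and 99.8 CPM for KO in that order, so KO cells still gave reads at this gene. Reads primed at 3′ ends can lie outside the replaced coding exon, so its level is no check of the genotype. WT replicate 2 stood apart from the other libraries, with a score of 32.5 on the first principal component (40% of variance) against -8.18 to -4.33. Values that change without it are given below. The cell type label was checked against marker lists, each summed over its genes in the table. Follicular B markers (10 of 11 in the table) summed to 6380 to 6530 CPM in WT and 6940 to 7210 CPM in KO, and 1 of them, Cd79b, was called lower in WT. Marginal zone B markers (7 of 7) summed to 1550 to 1620 CPM in WT and 1560 to 1710 CPM in KO. Most of this was Cr2 (means of 1043 CPM in WT and 1057 CPM in KO), which is also on the follicular B list. The T cell list (9 of 11) held 16.3 to 20.3 CPM in WT and 8.1 to 17.3 CPM in KO, with Cd3g and Tcf7 at 0 in KO replicate 1, and the NK list (5 of 6) held 7.83 to 14.1 CPM in WT and 6.53 to 7.3 CPM in KO. Germinal centre markers (7 of 7, S1pr2 among them) summed to 16 to 24.4 CPM in WT and 17 to 18.9 CPM in KO. Myeloid markers (8 of 8) summed to 36.1 to 52.9 CPM in WT and 34.1 to 42.4 CPM in KO. Plasma cell markers (5 of 5) summed to 449 to 528 CPM in WT and 560 to 623 CPM in KO, mostly Irf4, which B cells also express and which was called lower in WT. Erythroid markers (3 of 6) ranged from 2680 to 4710 CPM in WT and from 3010 to 7570 CPM in KO, nearly all from the beta-globin gene listed as Beta-s.

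Of the 9 transcripts, 2 were called higher in WT (Cxcr4 and Ccr7) and 1 lower in WT (Cd69) at an edgeR adjusted p under 0.05. Over all 10514 genes, 1.82% were called, 1.3% as higher and 0.514% as lower in WT. Among the 2036 tested genes averaging at least 1000 counts, 5.01% were called, a setting in which 8 of the 9 transcripts fall, since S1pr2 alone is rare. The median log2 fold change (WT over KO) of the 9 was -0.04, against -0.003 over all genes tested. At an unadjusted edgeR p under 0.05, 4 of the 9 passed, the fourth being Gpr183, where 11.9% of all genes did. In the same 3 called genes the WT and KO libraries did not overlap, with WT above KO for 2 and below for 1. The groups did not overlap in 16.7% of all genes tested, with WT above KO in 8.43% and below in 8.28%. The 3 called transcripts did not all move in one direction.

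**Figure D1:**
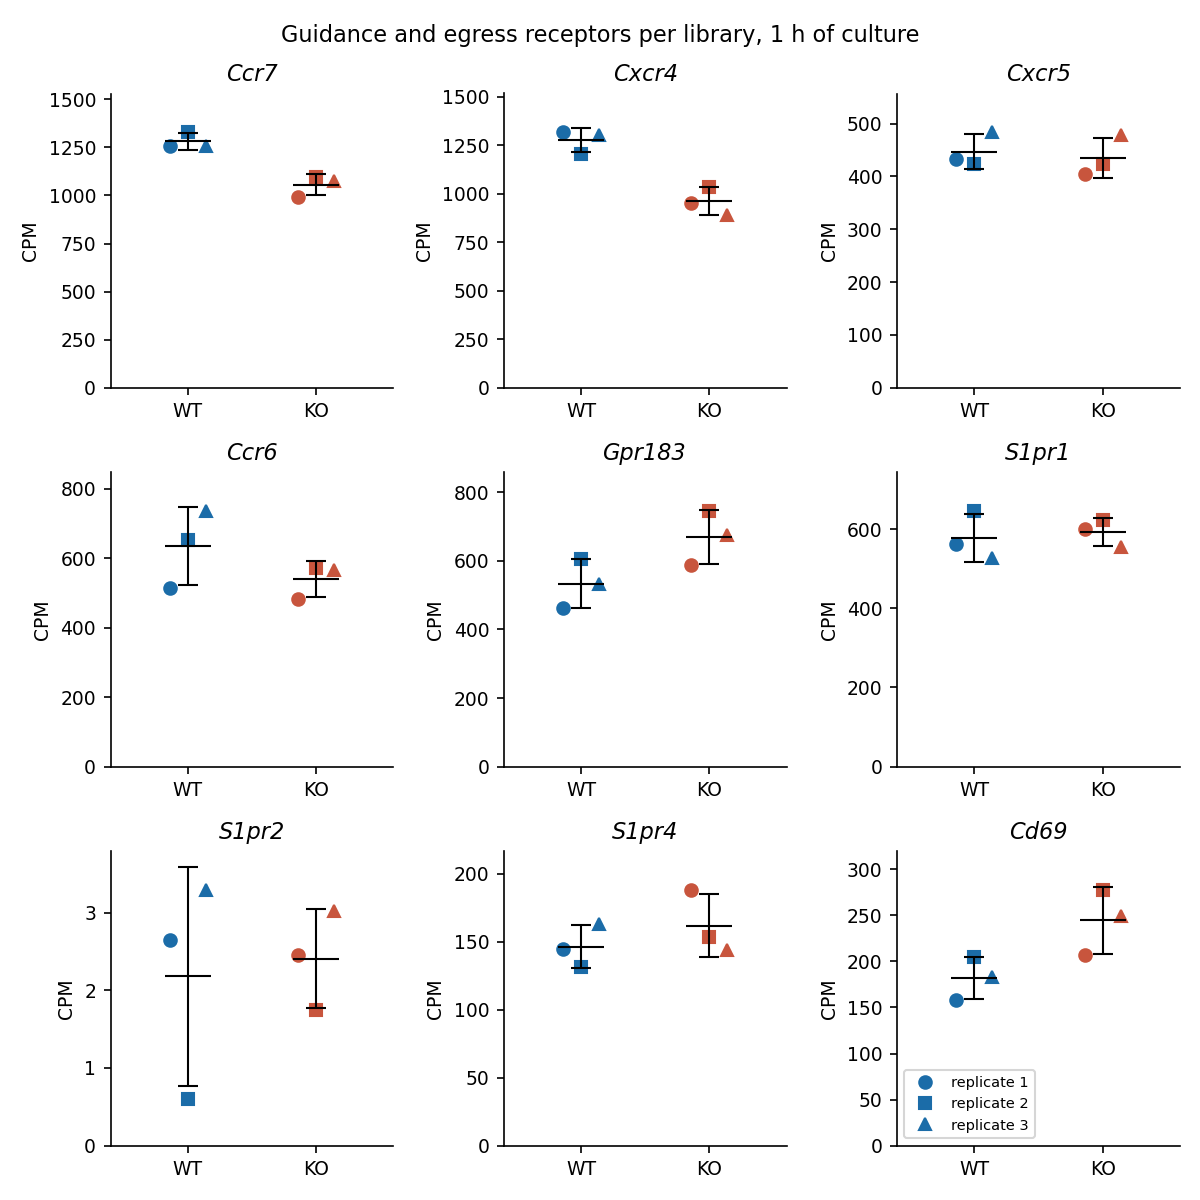
Level of each of the 9 transcripts in CPM (vertical axes, from 0) in the 3 WT libraries (blue) and 3 KO libraries (red), with the marker shape giving the replicate number and black bars the mean ± SD. The WT points lie above the KO points for Ccr7 and Cxcr4 and below them for Cd69, and the groups overlap in the other 6 panels.

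Promoter sequences were examined because CREB, the factor activated by cAMP and protein kinase A, binds the cAMP response element (CRE), and the study asks whether GPR174 signals through Gαs, the G protein subunit that raises cAMP. Of the 9 genes, 5 had an entry among RefSeq promoters of GRCm38.p6 (the assembly of mm10): Cxcr4, Ccr6, Gpr183, S1pr2 and S1pr4, with 6 annotated starts. Ccr7, Cxcr5, S1pr1 and Cd69 had none. The 250 bases before each start were searched on both strands for the CRE (TGACGTCA), its half-site (TGACG, of which the full CRE holds a copy on each strand), an NR4A site (AAAGGTCA), an AP-1 site (TGANTCA) and a KLF box (CACCC). The CRE was found at 1 of the 6 starts, that of S1pr2, and in 1.55% of all 32851 windows. The half-site was found at S1pr2 and at 1 of the 2 starts of Ccr6, and in 17.8% of all windows. The KLF box was found at Cxcr4, S1pr2 and S1pr4 and in 52% of all windows. The NR4A and AP-1 sites were found at none of the 6, and in 1.34% and 6.75% of all windows. The windows of Cxcr4 and Gpr183 are shown as those of the abundant receptors with the largest differences in either direction for which an entry was found, and that of S1pr2 because it holds the CRE. They are given 5′ to 3′ on the strand of the gene, ending at the base before the start, with matched motifs in capitals. All 3 genes are on the minus strand, and the windows are chr1:128592300-128592549, chr14:121965194-121965443 and chr9:20976794-20977043.
Cxcr4: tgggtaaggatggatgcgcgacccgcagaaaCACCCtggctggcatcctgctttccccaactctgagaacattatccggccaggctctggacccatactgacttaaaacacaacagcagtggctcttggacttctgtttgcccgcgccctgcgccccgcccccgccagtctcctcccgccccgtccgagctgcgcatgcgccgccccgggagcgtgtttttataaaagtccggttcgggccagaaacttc
Gpr183: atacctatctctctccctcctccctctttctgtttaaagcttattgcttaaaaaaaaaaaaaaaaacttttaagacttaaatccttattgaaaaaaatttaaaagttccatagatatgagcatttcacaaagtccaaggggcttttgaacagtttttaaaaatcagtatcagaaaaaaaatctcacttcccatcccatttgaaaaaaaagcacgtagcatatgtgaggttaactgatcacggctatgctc
S1pr2: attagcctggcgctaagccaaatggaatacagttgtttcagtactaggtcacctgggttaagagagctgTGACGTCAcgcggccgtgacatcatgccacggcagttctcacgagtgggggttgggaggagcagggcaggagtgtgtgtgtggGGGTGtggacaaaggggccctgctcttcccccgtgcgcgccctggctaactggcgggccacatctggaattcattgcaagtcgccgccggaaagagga
The capitals in the Cxcr4 window are a KLF box beginning 219 bases before the start. The Gpr183 window, which is rich in A and T, held no match. In the S1pr2 window the CRE begins 181 bases before the start and a KLF box on the reverse strand 98 bases before it. The called gene Cxcr4 thus had no CRE in this window and the gene with a CRE was too rare for its level to be compared, so the matches are given as a description only.

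Cxcr4 (chromosome 1, 128588199 to 128592293, mm10), the receptor for CXCL12, showed the smallest p of the 9. It gave 1320, 1208 and 1306 CPM in WT replicates 1 to 3, against 954, 1037 and 893 CPM for KO in the same order. All WT libraries were above all KO libraries, with means of 1278 CPM ± 61.1 against 961 CPM ± 72.1 (SD, n = 3 each). The log2 fold change was 0.41 ± 0.07 (SE, 95% interval 0.28 to 0.55), a level 1.33-fold higher in WT, with an edgeR adjusted p of 0.000313. When each of the 6 libraries was left out in turn the call held every time, and the edgeR adjusted p ranged from 0.000128 to 0.0146. It also held in each of the other 10 fits run. In bulk RNA such as this, a difference in the number of cells that express a gene and a difference in RNA per cell cannot be told apart.

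Ccr7 (chromosome 11, 99144196 to 99155077), the receptor for the T zone chemokines, was at 1256, 1331 and 1257 CPM in WT replicates 1 to 3. In KO replicates 1 to 3 it was at 994, 1098 and 1074 CPM. The lowest WT library was thus above the highest KO library, and the means were 1281 CPM ± 43.2 for WT against 1055 CPM ± 54.5 for KO (SD, n = 3 each). The log2 fold change of 0.28 ± 0.06 (SE, 95% interval 0.15 to 0.41) was smaller than that of Cxcr4, and the edgeR adjusted p was 0.0125. Without WT replicate 2, the library that stood apart, the log2 fold change was 0.25 and the gene was still called, narrowly (edgeR adjusted p 0.0453). Omitting KO replicate 1 (0.24, edgeR adjusted p 0.121) or KO replicate 3 (0.29, edgeR adjusted p 0.0648) removed the call. T cells and NK cells also express Ccr7 and Cxcr4. As given above, the summed T list overlapped between the groups and the NK list was higher in WT. These sums do not measure how much Ccr7 or Cxcr4 RNA such cells add. The part of these lists, and of the follicular B and plasma cell lists, whose sums were lower in WT, was not tested.

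Cxcr5 (chromosome 9, 44511787 to 44561877), the receptor that defines follicular homing, gave 433, 423 and 484 CPM in WT replicates 1 to 3, against 405, 423 and 478 CPM for KO in the same order. The groups overlapped throughout, with replicate 3 the highest in each genotype. The log2 fold change was 0.04 ± 0.07 (SE), and its 95% interval of -0.11 to 0.19 corresponds to a WT level between 0.924-fold and 1.14-fold of KO (edgeR adjusted p 0.893). The 3′ end of the annotated gene overlaps that of Bcl9l on the opposite strand by 110 bases, and since reads were primed at 3′ ends and the use of strand in counting was not stated, some reads of one could be counted for the other.

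Ccr6 (chromosome 17, 8236043 to 8257141) had the largest SE of the abundant receptors. It gave 513, 653 and 736 CPM in WT replicates 1 to 3, against 481, 572 and 567 CPM for KO in the same order. WT replicate 1 lay below 2 of the KO libraries, while the other WT libraries lay above all of them. The log2 fold change was 0.23 ± 0.12 (SE, 95% interval -0.05 to 0.51), with an edgeR adjusted p of 0.524. Without WT replicate 1, the lowest WT library, it was 0.36 and the gene was called (edgeR adjusted p 0.0126). Without WT replicate 3, the highest, it was 0.11 (edgeR adjusted p 0.696). Leaving out any other single library gave no call, so the value depends on which library is left out.

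Gpr183 (chromosome 14, 121952551 to 121965195), the oxysterol receptor, was at 463, 604 and 534 CPM in WT replicates 1 to 3. In KO replicates 1 to 3 it was at 588, 746 and 675 CPM. WT replicate 2 lay above KO replicate 1, and this was the only overlap between the groups. The log2 fold change was -0.33 ± 0.10 (SE, 95% interval -0.54 to -0.12), a difference of opposite sign to Ccr7 and Cxcr4, with an edgeR adjusted p of 0.137. DESeq2 called it (log2 fold change -0.32, DESeq2 adjusted p 0.0378). It was also called by edgeR without WT replicate 2 (-0.43, adjusted p 0.00785) or with KO replicate 1 omitted (-0.41, adjusted p 0.0249). When each library was left out in turn, the log2 fold change ranged from -0.43 to -0.23 and the edgeR adjusted p reached 0.38. Gpr183 lies wholly inside Ubac2, which is read from the opposite strand.

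**Figure D2:**
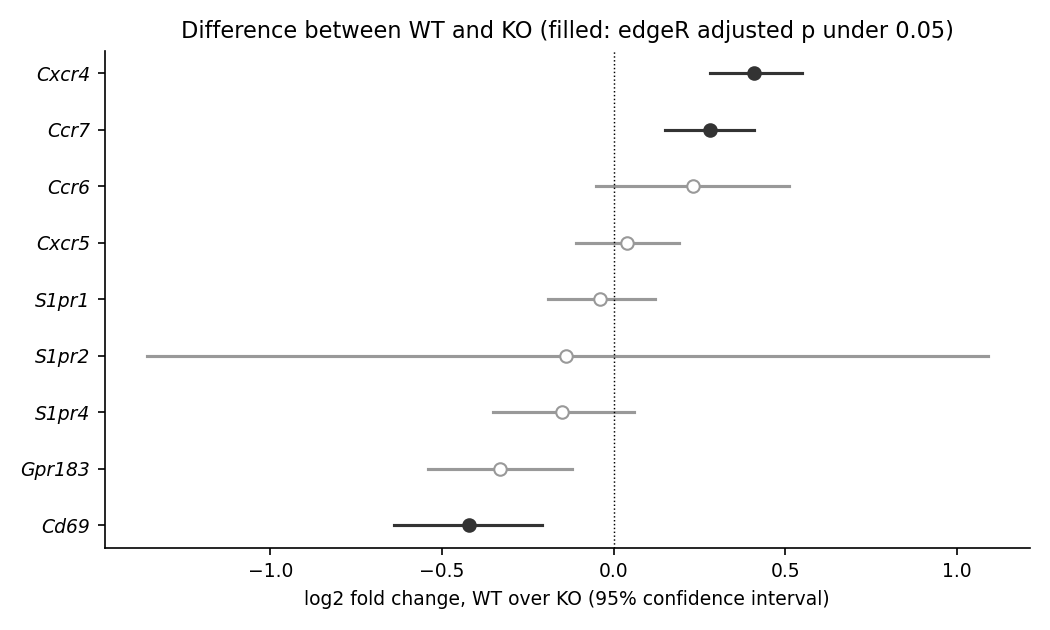
Log2 fold change of each transcript, WT over KO (horizontal axis), with its 95% confidence interval from the edgeR fit, and filled points where the edgeR adjusted p was under 0.05. Cxcr4 at 0.41 and Ccr7 at 0.28 lie to the right of 0 and Cd69 at -0.42 to the left, while Cxcr5 and S1pr1 lie within 0.04 of 0 and the interval of S1pr2 spans -1.36 to 1.09.

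The S1P receptors gave no call. S1pr1 (chromosome 3, 115710433 to 115715072), the egress receptor, gave 561, 646 and 528 CPM in WT replicates 1 to 3, against 599, 623 and 556 CPM for KO in the same order. The KO libraries lay inside the range of the WT libraries. Its log2 fold change was -0.04 ± 0.07 (SE), and the 95% interval of -0.19 to 0.12 places the WT level between 0.879-fold and 1.08-fold of KO (edgeR adjusted p 0.899). S1pr4 (chromosome 10, 81497747 to 81500132) gave 145, 131 and 163 CPM in WT replicates 1 to 3, against 188, 153 and 144 CPM for KO in the same order. These ranges overlapped, and the log2 fold change was -0.15 ± 0.10 (SE, 95% interval -0.35 to 0.06) with an edgeR adjusted p of 0.628. S1pr2 (chromosome 9, 20962361 to 20976781), which germinal centre B cells are known to express, gave 29, 5 and 29 counts in WT replicates 1 to 3, against 27, 16 and 31 counts for KO in the same order. The lone low value was that of WT replicate 2, without which the log2 fold change turned from -0.14 to 0.29. The 95% interval ran from -1.36 to 1.09 on the log2 scale, and a difference in S1pr2 was not detectable in these libraries.

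Cd69 (chromosome 6, 129267325 to 129275436), the partner that holds S1PR1 inside the cell, was lower in WT. It gave 159, 205 and 183 CPM in WT replicates 1 to 3, against 206, 278 and 249 CPM for KO in the same order. The highest WT library (204.6 CPM) lay just below the lowest KO library (206.4 CPM), so the groups did not overlap by a narrow margin. The means were 182 CPM ± 23 for WT against 244 CPM ± 35.8 for KO (SD, n = 3 each). The log2 fold change was -0.42 ± 0.10 (SE, 95% interval -0.64 to -0.21), or 0.745-fold of the KO level, with an edgeR adjusted p of 0.0423. The call is close to the threshold. It did not survive 4 of the 6 omissions of a single library, namely without WT replicate 1 (-0.33, edgeR adjusted p 0.124), without WT replicate 3 (-0.43, edgeR adjusted p 0.128), and with KO replicate 2 omitted (-0.33) or KO replicate 3 (-0.41), each with an edgeR adjusted p of 0.216. Without WT replicate 2 the gene stayed called, at a log2 fold change of -0.52.

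**Figure D3:**
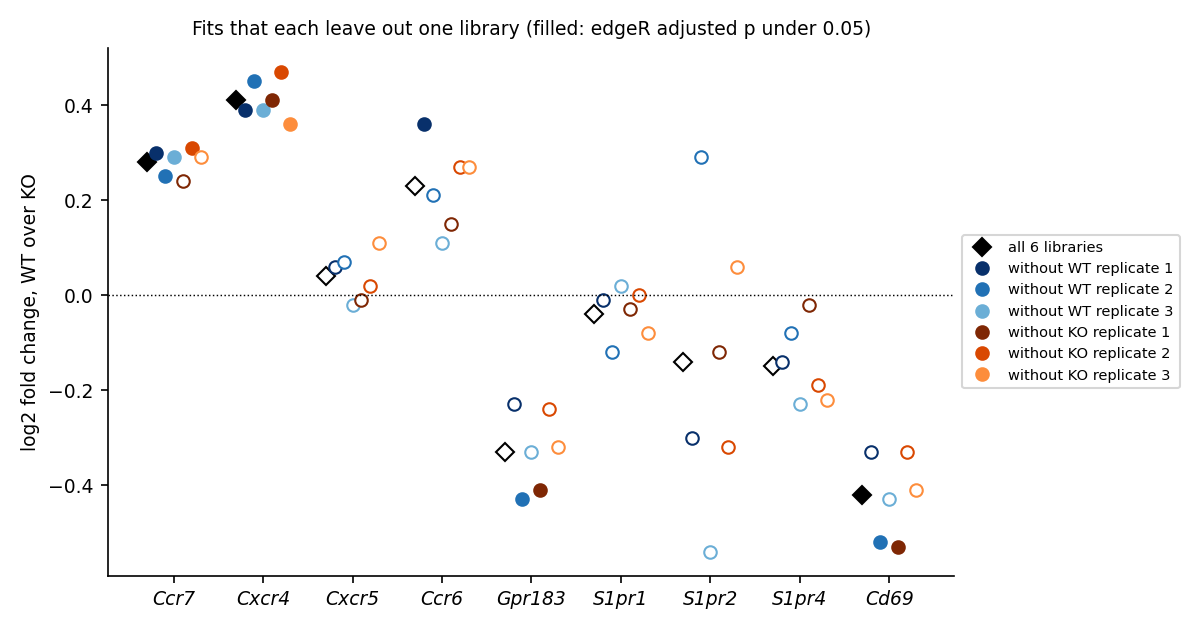
Log2 fold change of each transcript, WT over KO (vertical axis), with all 6 libraries (diamonds) and after omitting each library in turn (circles), filled where the edgeR adjusted p was under 0.05. Cxcr4 is filled in all 7 fits, Ccr7 in 5 and Cd69 in 3, and Gpr183 lies below 0 in each fit and is filled in 2.

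Since follicular B cells read several cues at once, the counts of pairs of these receptors were compared within each library, where library size cancels. These log2 ratios carry no test, and since counts are not per length only their differences between libraries are read. The pairs were chosen with earlier results known. Each difference between genotypes restates the log2 fold changes of its 2 genes given above, and is no separate result. The ratio of Ccr7 to Gpr183 separated the genotypes most, at 1.44, 1.14 and 1.24 for WT, against 0.76, 0.56 and 0.67 for KO, each in the order of replicates. The mean was 1.27 ± 0.15 (SD, n = 3) in WT and 0.66 ± 0.10 (SD, n = 3) in KO, a difference of 0.61 with no overlap. The ratio of Ccr7 to Cxcr5, which sets the T zone receptor against the follicular one, was 1.54, 1.65 and 1.38 in WT and 1.29, 1.37 and 1.17 in KO. All WT ratios were above all KO ratios, though WT replicate 3 exceeded KO replicate 2 by only 0.01 as rounded, and the means differed by 0.24. The ratio of Ccr7 to Cxcr4 was -0.07, 0.14 and -0.06 in WT and 0.06, 0.08 and 0.27 in KO, so the 2 transcripts that were both higher in WT kept overlapping proportions to each other. The ratio of S1pr1 to Cd69 was 1.82, 1.66 and 1.53 in WT and 1.54, 1.17 and 1.16 in KO. WT replicate 3 and KO replicate 1 nearly coincided, and the means differed by 0.38.

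**Figure D4:**
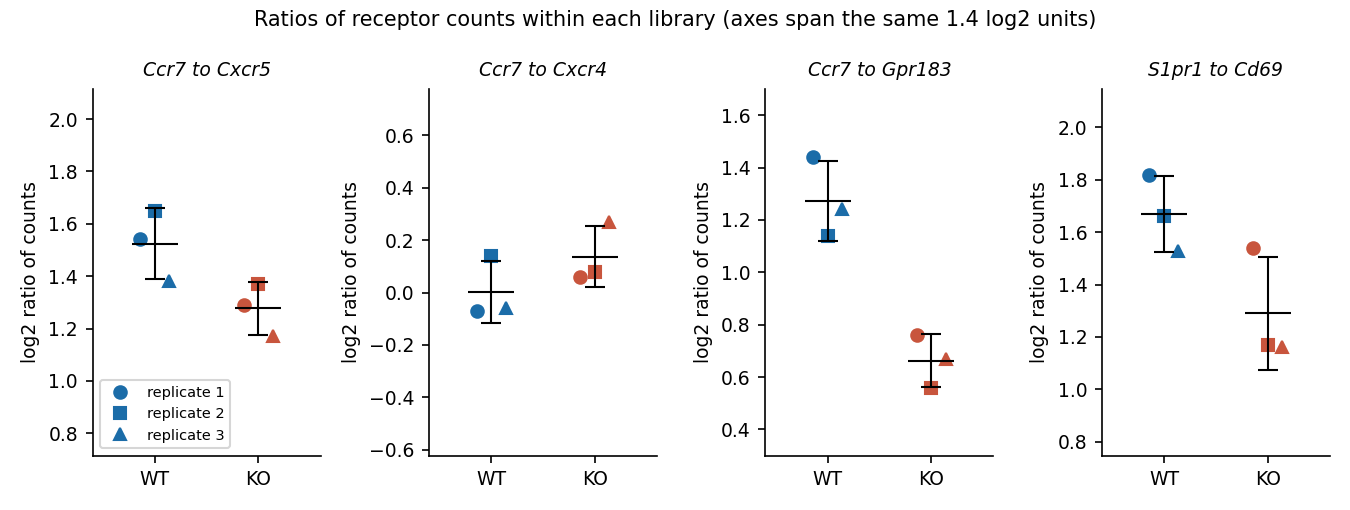
Log2 ratio of the counts of receptor pairs within each library (vertical axes, each spanning 1.4 log2 units) for WT (blue) and KO (red), with the marker shape giving the replicate number and black bars the mean ± SD. WT lies above KO for Ccr7 to Gpr183 (means 1.27 and 0.66) and for Ccr7 to Cxcr5 (1.52 and 1.28), and the groups overlap for the other pairs.

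Gpr183 and Cd69 varied alike from library to library. In WT both were lowest in replicate 1, then replicate 3, and highest in replicate 2, and in KO both followed the same order of replicates. The genes most like each receptor were sought by Pearson's r of log2 CPM over the 6 libraries among 7430 genes averaging at least 100 counts. These r values are descriptions, and the libraries share the genotype difference. Each is among the highest of 7430 values over only 6 libraries, so a high r can come from the search alone. For Gpr183 they were Egr3 (0.998), H2-Oa (0.996) and Vmp1 (0.993), and for Cd69 H2-Oa (0.993), Vmp1 (0.993) and Casp4 (0.991), so that H2-Oa and Vmp1 were shared. Egr3 is an early response transcription factor and H2-Oa the alpha chain of the MHC class II modulator H2-O. Egr3 gave 9.97, 16.7 and 13.7 CPM in WT replicates 1 to 3, against 15.5, 25.1 and 20.5 CPM for KO in the same order, which is -0.60 ± 0.22 (SE) on the log2 scale, WT over KO (edgeR, adjusted p = 0.229). For Ccr7 they were Pmepa1 (0.996), Snx18 (0.99) and Tob2 (0.984), and for Cxcr4 Gar1 (0.986), 1810037I17Rik (0.984) and Pde4d (0.984). Pmepa1, a target and inhibitor of TGF-β signalling, was called higher in WT, by 0.72 ± 0.11 (SE) on the log2 scale, WT over KO (edgeR, adjusted p = 0.000121). For the other receptors r ranged from 0.971 to 0.994. The nearest genes were Rbak, Gars and Flt3 for Cxcr5, Cpeb2, Sfpq and Usp10 for Ccr6, and Nop16, Etv3 and Asna1 for S1pr1. Bcl2l13, Atp5k and Cwc15 were nearest to S1pr2, and Fen1, Gnpat and Supv3l1 to S1pr4. S1pr2 had only 5 to 31 counts per library, the fewest in WT replicate 2. Whether its r values follow that library was not tested.

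Other receptors for guidance cues were examined next. Of 25 listed, 17 were in the table and 10 were tested, of which 2 were called, both higher in WT, with a median log2 fold change of 0.13. Over all 10514 genes tested, 1.3% were called as higher in WT. Gpr132, a receptor for lysophospholipids and oxidised fatty acids, averaged 183 CPM ± 18.4 over WT libraries against 109 CPM ± 6.66 over KO libraries (SD, n = 3 each), which is 0.74 ± 0.09 (SE) on the log2 scale, WT over KO (edgeR, adjusted p = 4.75e-06). This difference was larger on the log2 scale than that of any of the 9 receptors, and Gpr132 was called whichever library was left out. Ccr1, Ccr3 and Ccr9, the first others of the list to be tested, differed by 0.56, 0.29 and -0.26 on the log2 scale (in order, adjusted p by edgeR = 0.826, 0.867, 0.847, at mean levels under 6 CPM).

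The signalling genes that act below these receptors numbered 42, of which 40 were in the table and 39 were tested. The list held subunits of Gi and G12/13 proteins, regulators that switch receptors off, and the small GTPases of movement with their control factors. Of these, 2 were called, both higher in WT, and the median log2 fold change was 0.01. For comparison, 1.82% of all genes tested were called in either direction, and 5.01% of those averaging at least 1000 counts. The count is thus not read as a result about the list. Gna13, the G protein subunit through which S1PR2 restrains migration, averaged 582 CPM ± 30.4 over WT libraries against 437 CPM ± 11.8 over KO libraries (SD, n = 3 each), which is 0.41 ± 0.07 (SE) on the log2 scale, WT over KO (edgeR, adjusted p = 0.000309). Its start overlaps Gm11696 on the opposite strand by 824 bases. Rgs2, which speeds the return of G proteins to the inactive state and acts mainly on Gq, averaged 588 CPM ± 58.9 over WT libraries against 319 CPM ± 25.6 over KO libraries (SD, n = 3 each), which is 0.88 ± 0.08 (SE) on the log2 scale, WT over KO (edgeR, adjusted p = 1.65e-08). Both calls held whichever library was left out. Gnai2, the main Gi subunit of lymphocyte chemotaxis, Gnai3 and Gnb1 differed by -0.11, 0.16 and 0.04 on the log2 scale (in order, adjusted p by edgeR = 0.498, 0.576, 0.888).

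Homing adhesion molecules and the transcription factors known to control trafficking genes formed a list of 18, of which 17 were tested. Here 2 were called, both lower in WT, with a median log2 fold change of 0.01. Over all 10514 genes tested, 0.514% were called as lower in WT. Klf2, the factor known to drive S1pr1 in lymphocytes, averaged 2120 CPM ± 105 over WT libraries against 2487 CPM ± 66.2 over KO libraries (SD, n = 3 each), which is -0.23 ± 0.06 (SE) on the log2 scale, WT over KO (edgeR, adjusted p = 0.0381). Icam2, a ligand of the integrin LFA-1, averaged 63.5 CPM ± 4.09 over WT libraries against 87.3 CPM ± 6.3 over KO libraries (SD, n = 3 each), which is -0.46 ± 0.10 (SE) on the log2 scale, WT over KO (edgeR, adjusted p = 0.0139). These calls depended on single libraries. The Klf2 call was kept in 1 of the 6 omissions of a single library, without WT replicate 3, and its edgeR adjusted p rose to 0.184 without KO replicate 1, while the Icam2 call was kept in 2, without WT replicate 2 or KO replicate 2, and reached 0.141 without KO replicate 3. Selplg, which encodes the selectin ligand PSGL-1, and Itgal, the alpha chain of LFA-1, differed by 0.39 and -0.04 on the log2 scale (in order, adjusted p by edgeR = 0.0979, 0.905).

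The ligands of the 9 receptors were the last group. Of 24 genes for chemokines and for enzymes and transporters of oxysterols and S1P, 14 were in the table and 13 were tested. Of these, 0 were called by edgeR in either direction, where 1.82% of all genes tested were. Their median log2 fold change was 0.01. The genes for CCL19, CCL20, CCL21, CXCL12 and CXCL13 were not in the count table under the symbols sought. The smallest total of any gene in the table was 10 counts, so their absence may also reflect low counts. The tested genes were therefore those for enzymes and transporters, and no chemokine gene was among them. Of the tested genes, Cyp27a1, Hsd3b7 and Sphk2 differed by -0.23, -0.15 and 0.02 on the log2 scale (in order, adjusted p by edgeR = 0.758, 0.963, 0.981). At an unadjusted edgeR p under 0.05 the count was also 0, where 11.9% of all genes passed. By DESeq2 and by limma-voom it was 0 too, after adjustment, where 261 and 172 of all genes tested were called. With only 13 genes tested, the count of 0 is not read as a result about the list.

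**Figure D5:**
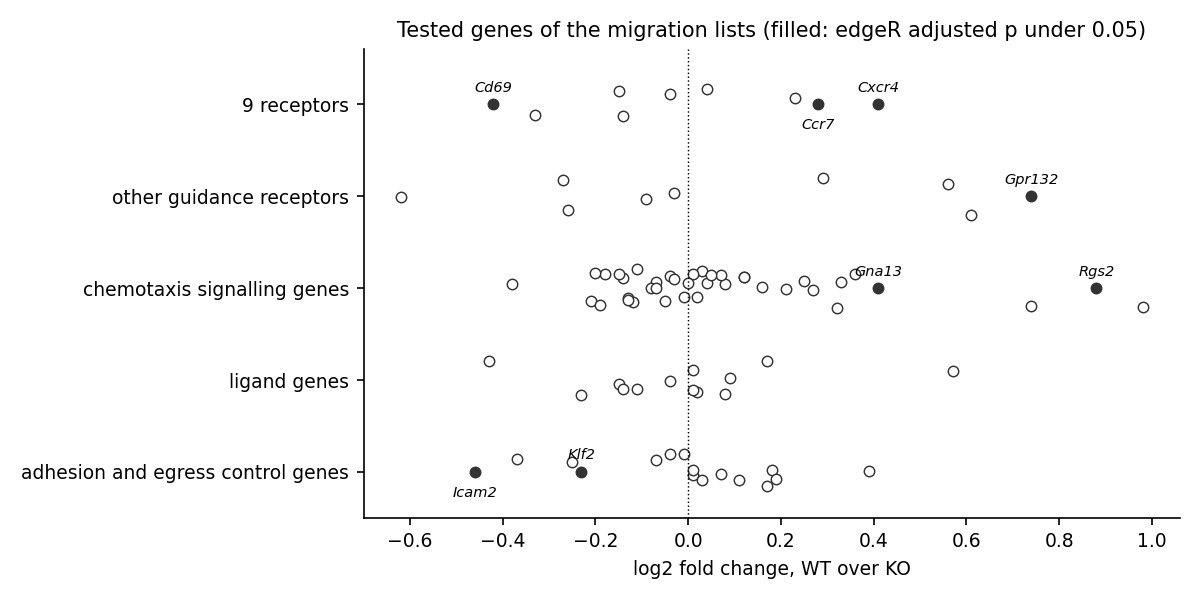
Log2 fold change, WT over KO (horizontal axis), of the 9 receptors and of the tested genes of the 4 further lists (stacked bands), with 2 genes that are not reported left out, filled and named where the edgeR adjusted p was under 0.05 and spread vertically only for visibility. Rgs2 at 0.88 and Gpr132 at 0.74 lie farthest to the right among named genes, Icam2 at -0.46 farthest to the left, and the ligand band holds no filled point.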

How the data were processed

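Libraries were made from follicular B cells of 3 WT and 3 KO male mice by priming at transcript 3′ ends. The authors aligned single-end reads to mm10 with STAR and deposited HTSeq counts per gene as whole numbers, not normalized. Program versions, the gene annotation and whether counting was stranded are not given in the sources used here, and 0 sample columns were left unused. Total counts were 8452460 to 10944833 per library. Every gene in the table had a total of at least 10 counts, so a listed gene that is absent may have had fewer. The study's methods describe no molecular identifiers. Pairs of replicates differed by a chi-square of 6.89 to 10.9 per degree of freedom over genes, so no library was a copy of another.

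Genes were filtered with filterByExpr, scaled by TMM and compared with edgeR 4.0.16 (R 4.3.3) by its quasi-likelihood F test with robust dispersions, two-sided, on genotype alone, with Benjamini-Hochberg adjustment over the 10514 genes tested and a threshold of 0.05. Log2 fold changes are WT over KO, with SE taken from the F statistic. CPM are counts over TMM-scaled library size. Ratios of receptors used counts plus 0.5. Gene positions came from GENCODE M21. Listed symbols absent from the table were sought through RefSeq synonyms, which matched 11. The fit was tested on simulated data.

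The receptors, gene lists and marker lists were chosen with earlier results of these data known. The text names all 9 receptors and the called genes of the other lists, apart from listed genes that are not reported here. It also names up to 3 further tested genes per list in listed order, and the 3 genes with the highest r to each receptor. The setting of at least 1000 mean counts and the promoters printed were chosen after values were seen. Alternatives were DESeq2 1.42.0, limma-voom 3.58.1, other scalings, filters and dispersions, a replicate block, removal of the 50 most abundant genes, a pseudocount of 5 for ratios, and leaving out each library. Replicate numbers were not treated as pairs. Values of 2 listed genes are not reported here.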

Additional observations from a re-analysis of the deposited data

How the results depend on the processing

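Over the 10 alternatives that kept all 6 libraries, Ccr7, Cxcr4 and Cd69 kept their direction and their call, with adjusted p of 0.000711 to 0.0203, 6.61e-07 to 0.00106 and 0.000894 to 0.0481. Gpr183 passed the threshold with DESeq2 (-0.32) and with the replicate block (-0.33, edgeR adjusted p 0.00171). The count of called genes ranged from 170 to 281 against 191, with 281 under the block, and no other call among the receptors changed there. Deviations of same-numbered WT and KO libraries correlated at 0.05, 0.014 and 0.043, each library correlating best with its own number. These values are small. The sample titles do not say whether the numbers mark pairs, and this was not tested. Without the 50 most abundant genes, Klf2 among them, the adhesion list held 1 call. Leaving out each library gave 91 to 183 called genes, 1 to 4 called receptors (1 without KO replicate 3, which lost Ccr7 and Cd69) and 0 to 2 called adhesion genes. Log2 fold changes then ran from 0.24 to 0.31 for Ccr7, 0.36 to 0.47 for Cxcr4, -0.53 to -0.33 for Cd69, -0.43 to -0.23 for Gpr183, 0.11 to 0.36 for Ccr6 and -0.23 to -0.02 for S1pr4. The sign reversed for 3 uncalled receptors: Cxcr5 (-0.02 to 0.11; -0.02 without WT replicate 3 and -0.01 without KO replicate 1), S1pr1 (-0.12 to 0.02; 0.02 without WT replicate 3) and S1pr2 (-0.54 to 0.29; 0.29 without WT replicate 2 and 0.06 without KO replicate 3). The cause of these changes was not tested. S1pr2 rested on 5 to 31 counts per library, and whether depth or the spread between libraries limits its value was not tested.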
